A study of Mus musculus with 18 samples.

Results

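Smooth muscle cells of mouse skin were examined during stretch of the skin by an implanted expander. They were selected on their own transcripts: among barcodes with at least 200 genes, at least 500 unique molecular identifiers (UMIs, 1 per captured mRNA molecule) and at most 10% mitochondrial UMIs, a cell was taken when it had at least 3 Myh11 UMIs, at least 10 UMIs of Acta2 and Tagln together, no Ptprc and no Pecam1 UMI, and less than 0.3% of its UMIs from Krt5 and Krt14. The rule found 728 of 47251 kept cells. All mice had surgery that opened a path under the back skin. EXP mice received an expander hydrogel under the skin near the neck, and CTRL mice received none. Skin was taken on day 1, 2 or 4, and live DAPI-negative cells were sorted. The mice of an arm and sequencing round were pooled in 1 tube, so a library is a pool and was used as the replicate. The labels list 3 or 4 hashing antibodies, 1 for each mouse, for 8 of the 10 pools. No genotype, strain or age was in the labels used here. Each arm had 5 libraries: day 1 in rounds 1 and 2, day 2 in rounds 1 and 2, and day 4 in round 1, and 5 values in a row below follow that order.

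Smooth muscle cells contract when calcium, entering through channels or released from the sarcoplasmic reticulum, activates myosin light chain kinase, which phosphorylates myosin light chains. In skin they line arterioles and venules, where with pericytes they make up the mural cells, and they form the arrector pili muscles and the dermal sheath of hair follicles. They can lower their contractile genes and make matrix instead, a change called the contractile-to-synthetic switch. Serum response factor with its cofactor myocardin binds CArG boxes in promoters of contractile genes.

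The promoters of 4 genes followed here are shown because each holds a CArG box, drawn in capitals, in the 250 bases before the gene's start (RefSeq, build GRCm38.p6). Myl9 and Myl6 encode myosin light chains, Vcl encodes vinculin of adhesion plaques, and Rergl encodes a Ras-like protein found in arterial smooth muscle. The windows are chr2:156775214-156775463 (plus strand), chr10:128493010-128493259 (minus strand), chr14:20929148-20929397 (plus strand) and chr6:139501910-139502159 (minus strand), each written 5′ to 3′ on the gene's strand.
Myl9: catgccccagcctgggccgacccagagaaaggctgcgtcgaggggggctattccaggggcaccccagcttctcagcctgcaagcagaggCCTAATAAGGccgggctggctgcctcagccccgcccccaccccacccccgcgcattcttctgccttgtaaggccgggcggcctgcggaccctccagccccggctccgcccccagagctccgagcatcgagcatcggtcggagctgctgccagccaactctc
Myl6: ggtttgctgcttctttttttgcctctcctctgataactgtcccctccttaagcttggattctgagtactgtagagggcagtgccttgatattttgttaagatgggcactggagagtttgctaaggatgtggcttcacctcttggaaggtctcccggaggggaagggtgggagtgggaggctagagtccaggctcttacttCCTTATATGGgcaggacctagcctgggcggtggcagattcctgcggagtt
Vcl: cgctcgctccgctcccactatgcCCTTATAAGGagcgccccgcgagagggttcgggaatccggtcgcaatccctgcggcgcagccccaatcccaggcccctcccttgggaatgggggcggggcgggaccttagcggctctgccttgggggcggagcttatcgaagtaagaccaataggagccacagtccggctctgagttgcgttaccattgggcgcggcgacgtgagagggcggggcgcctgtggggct
Rergl: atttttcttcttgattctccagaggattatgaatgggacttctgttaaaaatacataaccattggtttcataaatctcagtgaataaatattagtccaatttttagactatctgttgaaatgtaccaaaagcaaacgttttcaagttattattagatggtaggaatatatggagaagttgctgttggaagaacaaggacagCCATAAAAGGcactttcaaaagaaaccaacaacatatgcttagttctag
The box begins 161, 50, 227 and 49 bases before the gene's start, in that order. It was searched by its letters, which read alike on both strands, in windows from 250 bases before to 50 after each start. Of all 32851 windows, 1.63% held one, and of all 27025 symbols with a window, 1.81%. In the list of contractile apparatus genes, 5 of 26 symbols with a window held one (Fhl1, Ldb3, Myl6, Myl9 and Vcl). In the list of calcium handling genes 1 of 23 did. Of symbols with a window in other lists, 2 of 10 skeletal muscle markers, 2 of 16 smooth muscle transcription regulators and 3 of 27 immediate early genes held one. Of vasoactive genes 0 of 30 did, and several further lists held none. A match is a description of the letters and not of binding.

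Markers of smooth muscle that the rule had not used were present in the selected cells to unequal extents. Des, the intermediate filament desmin, had a UMI in 679 of 728 cells (93.3%), against 0.545% of 12100 immune cells. The latter, called Ptprc cells, had at least 2 UMIs of the immune marker Ptprc and no UMI of the fibroblast marker Pdgfra. The median depths of the selected cells and the Ptprc cells were 6574 and 7519 UMIs. Cnn1, calponin, had a UMI in 29.4% of the selected cells, and Actg2, the enteric smooth muscle actin, in 23.1%. In the Ptprc cells the shares were 0.132% and 0.273%. Notch3, the Notch receptor of mural cells, had a UMI in 87.6% of the selected cells, and Rgs5, a G protein regulator shared with pericytes, in 79.0%, against 0.471% and 0.769% of the Ptprc cells. Both Notch3 and Rgs5 are on the list of pericyte markers used below. By library, 29 to 190 cells were selected, 536 in CTRL and 192 in EXP. The genes of the rule are a description only: Myh11, smooth muscle myosin, stood at 3182, 2442, 2885, 1796 and 2355 CPM (the gene's count scaled to the same total in every library) in CTRL and at 2319.5, 1647, 1599, 1128 and 965 CPM in EXP, and Acta2, smooth muscle actin, at 7374, 6508, 10894, 7718 and 7329 and 10229.7, 6808, 9816, 9163 and 7141 CPM. For both genes the arms overlapped. At the edge of the rule, 0 to 12 cells a library had exactly 3 Myh11 UMIs, and 0 to 8 met every other condition with 2.

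The cells were not of 1 kind. A set of 60 cells, chosen after the values were seen, had neither a Notch3 nor an Rgs5 UMI. As a description, these cells held Des at 6135 CPM, against 759 CPM in the other 668. Actg2, the enteric smooth muscle actin, stood at 3091 against 95.5 CPM, and Cnn1, calponin, at 1456 against 82.8 CPM. Ckm, muscle creatine kinase, had a UMI in 51.7% of them, in 0.150% of the other 668 and in 7.82% of the Ptprc cells. Of fibroblast transcripts, Col1a1 stood at 8366 CPM in the 60 cells against 1825 CPM, and Dcn at 2986 against 988 CPM. A Pdgfra UMI was in 8.33% of the 60 against 2.99%, a Dcn UMI in 45% against 43.7% and a Col1a1 UMI in 58.3% against 66.2%. The median depth of the 60 cells was 5344 UMIs, against 6595 in the others. They made up 6.45, 5.71, 17.2, 2.61 and 6.32% of the smooth muscle cells in CTRL and 12.2, 19.5, 21.7, 3.23 and 12.1% in EXP.

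Another set of 340 cells, also chosen after the values were seen, had a UMI of Pln or Rergl. Pln encodes phospholamban, the brake on the calcium pump of the sarcoplasmic reticulum. This set took 58.1, 50, 51.7, 48.7 and 66.3% of smooth muscle cells in CTRL and 36.6, 12.2, 6.52, 19.4 and 24.2% in EXP. In every CTRL library the share was above that in every EXP library, although the EXP smooth muscle cells held more UMIs. When each cell was brought to 2000 UMIs by calculation, leaving out 9 CTRL and 8 EXP cells, the shares were 31.4, 33.5, 44.4, 29.9 and 46.2% in CTRL and 19.3, 5.12, 1.13, 6.79 and 12.0% in EXP. The arms again did not overlap. In Ptprc cells the share with a UMI of either gene was 0.250% in CTRL and 0.210% in EXP. The cells without Notch3 and Rgs5 overlapped between the arms at 2000 UMIs, with 12.6, 10.3, 29.7, 8.14 and 18.6% in CTRL and 14.8, 14.8, 25.2, 11.8 and 7.16% in EXP. Since both sets were chosen from these values, no test was made on them.

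**Figure D1:**
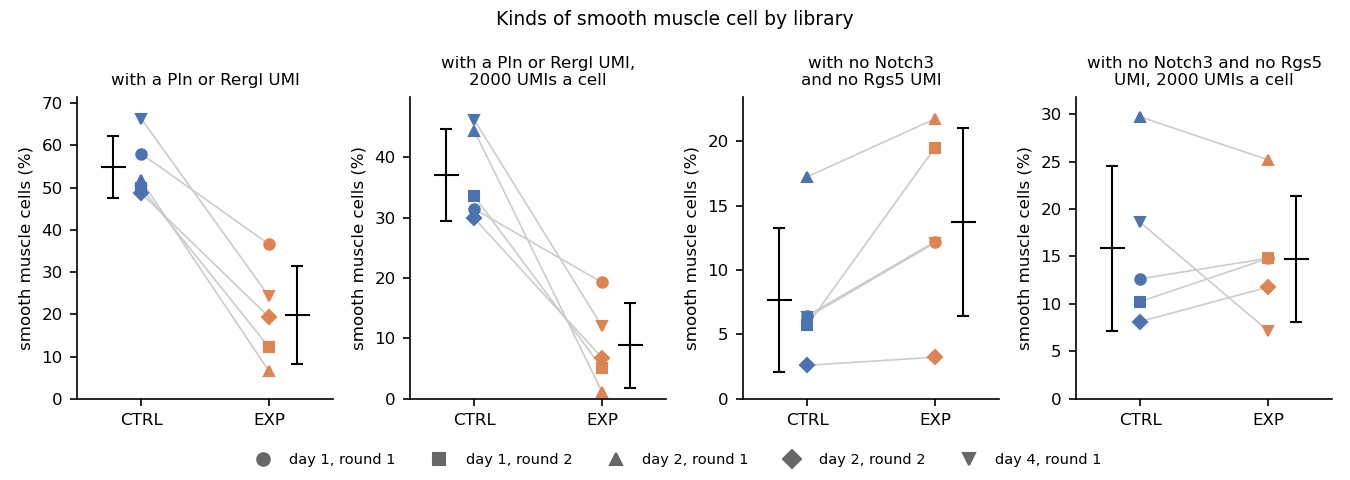
Share of smooth muscle cells with a Pln or Rergl UMI and share with neither a Notch3 nor an Rgs5 UMI, in percent, in each of 5 CTRL and 5 EXP libraries, as counted and with every cell brought to 2000 UMIs. Symbols are day-and-round pairs joined by lines, bars are mean and SD. The Pln or Rergl share is 48.7 to 66.3% in CTRL and 6.52 to 36.6% in EXP.

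Whether expansion changed how many smooth muscle cells were recovered was asked next. They made up 1.06, 1.68, 1.33, 1.97 and 2.53% of kept cells in CTRL and 1.39, 0.698, 1.36, 1.61 and 0.964% in EXP. The difference between the means was -0.512 percentage points (1.71 ± 0.57 against 1.20 ± 0.37%, SD, n = 5; exact two-sided permutation test p = 0.111; smallest p possible 0.00794), and EXP was higher in 2 of 5 pairs of the same day and round. The difference was within the spread between libraries. In the widest case the 95% Wilson interval of a single library ran from 1.14 to 2.27%, and it covers counting error only.

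Most mural cells by these rules were smooth muscle cells. Rgs5 mural cells, the comparison group, had at least 5 Rgs5 UMIs, a Pdgfrb UMI and at most 2 Myh11 UMIs, with the same limits on Ptprc, Pecam1 and keratins. There were 161 of them, 96 in CTRL and 65 in EXP. Of both kinds together, smooth muscle cells took 80.5, 80.5, 67.4, 91.3 and 89.6% in CTRL and 87.2, 70.7, 80.7, 70.5 and 64.7% in EXP (exact permutation p = 0.262, two-sided). The members' depth differed between the arms: the median was 5037 to 6775 UMIs a cell in CTRL and 7143 to 16716 in EXP. Over all kept cells the medians were closer, but also higher in EXP in all 5 pairs. They were 11585, 6440.5, 6899, 7192 and 8240 UMIs in CTRL and 12847.5, 7501, 11293, 7469 and 8840 in EXP. With every kept cell thinned to 3000 UMIs, which left out 4320 CTRL and 2220 EXP cells, the share of mural cells was 75.4, 80.8, 72.4, 82.9 and 85.3% in CTRL and 65.1, 55.3, 59.0, 50 and 30% in EXP (n = 5 each, exact permutation p = 0.00794), lower in all 5 pairs. A smooth muscle cell left with at most 2 Myh11 UMIs by thinning could count as an Rgs5 mural cell instead. Rgs5 mural cells went from 15, 34, 14, 11 and 22 to 16, 24, 8, 18 and 28 in CTRL with thinning. In EXP they went from 6, 17, 11, 13 and 18 to 15, 17, 16, 17 and 28. At that depth the share of kept cells differed by -0.852 points, EXP minus CTRL (n = 5 each, exact permutation p = 0.0238). With cells left out that had a Pdgfra UMI or more UMIs than the 98th percentile of their library, called possible doublets here, the difference in that share was -0.913 points (exact permutation p = 0.0476). That step also takes fibroblasts from the kept cells: the mean share was 2.42% in CTRL and 1.5% in EXP after it. As a share of the kept cells without a Ptprc UMI, smooth muscle cells differed by -0.300 points (exact permutation p = 0.571). Both shares rest on Myh11, a gene of the rule, whose level per cell and whose cells cannot be told apart here.

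**Figure D2:**
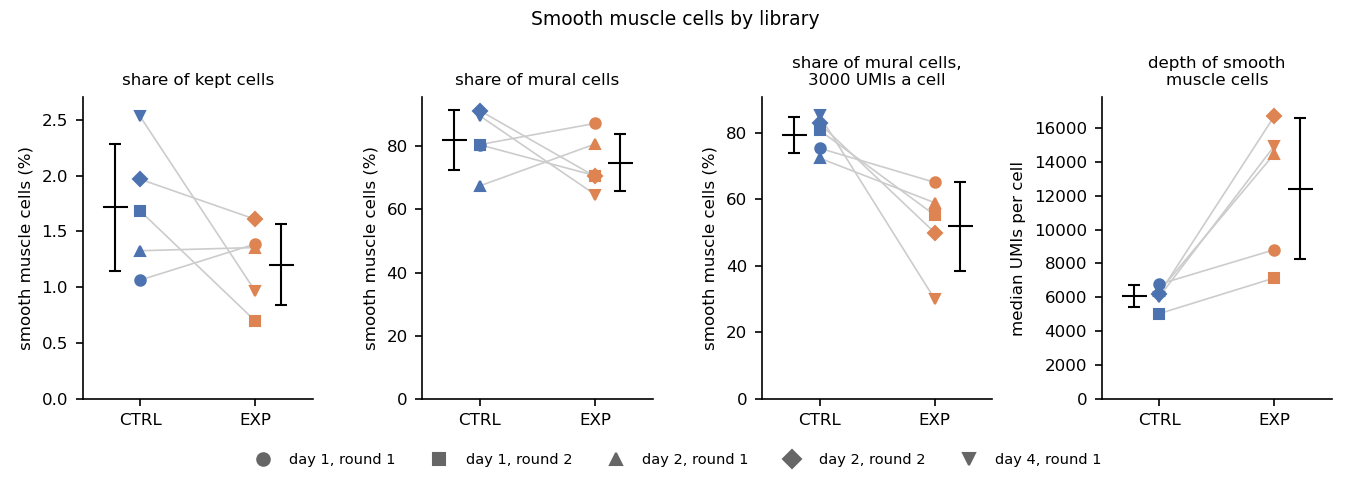
Smooth muscle cells as percent of kept cells, as percent of mural cells with all UMIs and with 3000 UMIs a cell, and the median UMIs per smooth muscle cell, in 5 CTRL and 5 EXP libraries. Lines join libraries of the same day and round, bars are mean and SD. The arms overlap in the first 2 panels and do not in the last 2.

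To ask which genes changed, the UMIs of smooth muscle cells were added up within each library, and the sums were compared by the quasi-likelihood test of edgeR in a model that also holds the day (n = 5 libraries per arm). A positive log2 fold change means higher in EXP, its error is the SE, and called means an adjusted p under 0.05. Of 5510 genes tested, 910 were called (16.5%). Of these 418 rose (7.59% of tested) and 492 fell (8.93%), and the median over all tested genes was 0.01. The sums held 261345 to 1373885 UMIs. Without both day 4 libraries 304 of 5509 genes were called, 111 higher and 193 lower. List counts without the day 4 libraries, given below, stand beside these 111 and 193. Without the CTRL day 4 library 339 genes were called, and without the EXP day 4 library 305. Since mice were pooled, the p-values measure the spread between pools. Where a call is said below to have ended in an alternative, it may have ended in others too.

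**Figure D3:**
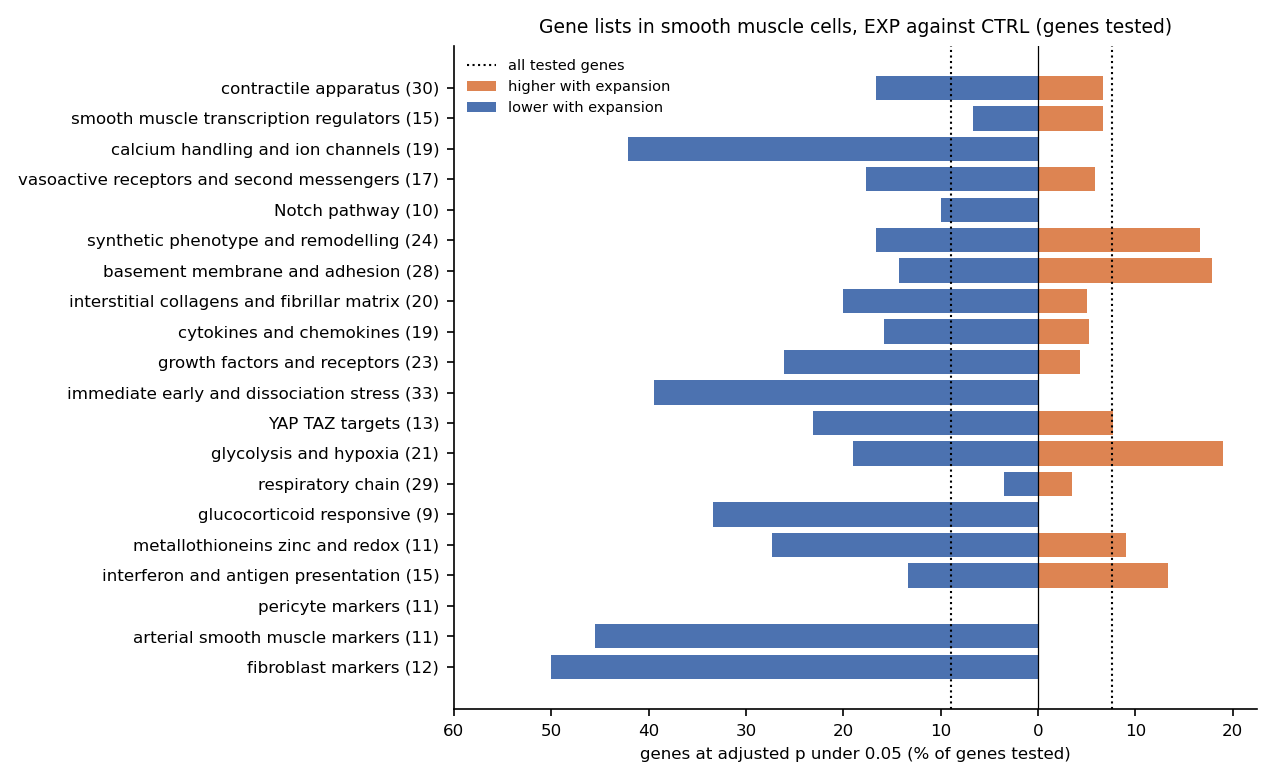
Percent of the tested genes that fell (left) or rose (right) with expansion in smooth muscle cells at adjusted p under 0.05, for the functional lists with at least 9 tested genes and the pericyte, arterial and fibroblast marker lists, with the number tested in brackets. Dotted lines mark all tested genes, 8.93% lower and 7.59% higher. Among the lists drawn, calcium handling, immediate early, arterial and fibroblast markers reach furthest to the left, and the pericyte list has no called gene.

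Of 30 tested genes of the contractile apparatus, 2 rose and 5 fell, with a median log2 fold change of -0.21. The shares over all genes were 7.59% higher and 8.93% lower. Without the day 4 libraries 1 rose and 1 fell. Tpm1, a tropomyosin of the thin filament, stood at 3694, 4257, 4335, 5101 and 5074 CPM in CTRL and 3679, 4064, 5209, 4579 and 6389 CPM in EXP (log2 fold change 0.02 ± 0.12, adjusted p = 0.94). The arms overlapped. Mylk, the kinase that starts contraction, had 1784 ± 183 CPM in CTRL and 1818 ± 255 CPM in EXP (log2 fold change -0.04 ± 0.13, adjusted p = 0.868), and Cald1, caldesmon, and Tpm2 were likewise not called (adjusted p = 0.634 and 0.598). Ppp1r12a, the targeting subunit of myosin phosphatase, fell from 776, 814, 957, 679 and 948 CPM in CTRL to 681, 569, 407, 409.6 and 385 CPM in EXP (log2 fold change -0.85 ± 0.17, adjusted p = 0.00796). Only the highest EXP library, that of day 1 round 1, exceeded the lowest CTRL library.

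The light chains whose promoters hold a CArG box fell by small steps. Myl6 stood at 3914, 4151, 4710.2, 3815 and 4145 CPM in CTRL and 3327, 3158, 3387, 3302 and 2885 CPM in EXP (log2 fold change -0.43 ± 0.12, adjusted p = 0.0281), with no overlap. Myl9 was lower in all 5 pairs, with overlapping arms (2356 ± 439 CPM in CTRL and 1826 ± 316 CPM in EXP; log2 fold change -0.41 ± 0.12, adjusted p = 0.0392). Both calls ended without the day 4 libraries and with cells thinned to 2000 UMIs. Vcl, with the box as well, was not called (log2 fold change -0.01 ± 0.14, adjusted p = 0.981). The other members that fell were Synm, an intermediate filament protein (log2 fold change -0.69), and Aoc3, a cell-surface amine oxidase (-0.65), and these calls ended without the day 4 libraries too. With cells thinned to 2000 UMIs the list's median was 0.08, with 2 of 24 tested members higher and 2 lower. Of all 1301 genes tested at that depth 118 rose and 148 fell.

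Desmin and the adhesion molecule Mcam rose. Des stood at 987, 871, 1205, 856 and 715 CPM in CTRL and 1999, 2089.7, 2364, 985 and 1832 CPM in EXP (log2 fold change 0.96 ± 0.22, adjusted p = 0.0142), higher in all 5 pairs. With only cells that had a Notch3 or Rgs5 UMI, the change in Des was 0.37 (adjusted p = 0.165), and the call ended. The cells without those UMIs held more Des than the others, as given above. Within them Des stood at 3159 CPM in CTRL and 9131 CPM in EXP, as a description. What their number and their level each add to the change in Des was not tested. Mcam, known as CD146, had 179 ± 21.7 CPM in CTRL and 313 ± 65.2 CPM in EXP (SD; log2 fold change 0.74 ± 0.15, adjusted p = 0.00794), and the arms did not overlap. Its call ended with cells thinned to 2000 UMIs, and that of Des also without the day 4 libraries. In the cells with a Notch3 or Rgs5 UMI, 11 contractile genes fell and 1 rose of 30, with a median of -0.51. Of all 5386 genes tested in those cells 543 fell and 425 rose.

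Several genes of calcium handling fell. Of 19 tested members 8 fell and 0 rose (median -0.54), against 8.93% lower among all genes. Without the day 4 libraries 4 of 19 fell, with a median of -0.57. Pln stood at 124, 213, 429, 149 and 339 CPM in CTRL and 105, 23.1, 1.54, 33.6 and 28.7 CPM in EXP (log2 fold change -2.79 ± 0.59, adjusted p = 0.00994). All CTRL libraries lay above all EXP libraries. Itpr1, the receptor that releases calcium on inositol trisphosphate, stood at 142, 195, 172, 143 and 205 and 78.4, 56.2, 56.8, 103 and 102 CPM (log2 fold change -1.16 ± 0.19, adjusted p = 0.00352), also with no overlap. Both calls held in each of the 20 alternatives that tested them.

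Further members release, store or move calcium. Ryr2, the ryanodine receptor of the sarcoplasmic reticulum, fell from 42.0, 33.9, 23.0, 23.4 and 36.4 to 22.4, 23.1, 3.07, 10.5 and 4.10 CPM (log2 fold change -1.53 ± 0.36, adjusted p = 0.0142). The EXP libraries of day 1 lay near the lowest CTRL libraries and those of day 2 and 4 below them. A change of its effect with day was not called in the edgeR test given below. Slc8a1, the sodium-calcium exchanger, and Atp2b4, a plasma membrane calcium pump, fell by 0.89 and 0.64 on the log2 scale. Casq2, which stores calcium in the reticulum, fell by 1.15, P2rx1, the ATP-gated channel, by 0.68 and Cacnb2, a subunit of the voltage-gated channel, by 0.95. The calls of Ryr2, Slc8a1, P2rx1 and Cacnb2 ended without the day 4 libraries. The pump Atp2a2, on which phospholamban acts, was not called (log2 fold change -0.34 ± 0.14, adjusted p = 0.125).

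Among 11 tested markers of arterial smooth muscle 5 fell and 0 rose (median -0.62), against 8.93% lower among all genes. Without the day 4 libraries 4 fell. The 5 were Pln and Casq2, which the calcium list also holds, Rergl, Map3k7cl and Ntrk3, whose call ended there. Actg2 of the same list was higher in all 5 pairs and not called (log2 fold change 0.53 ± 0.49, adjusted p = 0.493). Rergl stood at 56.0, 63.7, 99.5, 122 and 127 CPM in CTRL and 35.8, 9.92, 3.07, 21.0 and 28.7 CPM in EXP (log2 fold change -2.32 ± 0.39, adjusted p = 0.00379), and Map3k7cl at 219.9, 275, 321, 399 and 373 and 137, 122, 96.8, 119.7 and 193 CPM (log2 fold change -1.32 ± 0.17, adjusted p = 0.00189). For both, the arms did not overlap. Against 16.5% of all genes, 0 of 11 tested pericyte markers were called (median 0.14). Among these Notch3 stood at 652, 665, 298, 504 and 493 CPM in CTRL and 739, 608, 399, 557 and 520.4 CPM in EXP (log2 fold change 0.06 ± 0.16, adjusted p = 0.822), and Rgs5 had 2658 ± 1452 CPM in CTRL and 3621 ± 1795 CPM in EXP (log2 fold change 0.32 ± 0.35, adjusted p = 0.563). From the sums, fewer cells of the Pln and Rergl kind and less of these RNAs per cell cannot be told apart.

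Receptors and messengers that set vessel tone were next. Of 17 tested vasoactive genes 3 fell and 1 rose (median -0.39), against 8.93% and 7.59% of all genes. Gucy1a1, a subunit of the nitric oxide receptor, fell from 356, 504, 532, 697 and 785 to 316, 403, 239.6, 246 and 389 CPM (log2 fold change -0.91 ± 0.19, adjusted p = 0.0105), lower in all 5 pairs with overlapping arms. Avpr1a, the vasopressin receptor of vessels, had 292, 408, 88.0, 276 and 518 CPM in CTRL and 78.4, 99.2, 114, 107 and 111 CPM in EXP (log2 fold change -1.61 ± 0.31, adjusted p = 0.00647). The CTRL library of day 2 round 1 was the exception, since it lay among the EXP values. Ednrb, the endothelin B receptor, was called higher, with 32, 104, 15.3, 10.5 and 44.4 CPM in CTRL and 143, 23.1, 356, 204 and 623 CPM in EXP (log2 fold change 2.48 ± 0.70, adjusted p = 0.0308). It was higher in 4 of 5 pairs, and the call ended without the EXP day 4 library, which held the highest value. Rgs7bp, which anchors G protein regulators, fell by 0.71 on the log2 scale, and this call also ended without the day 4 libraries.

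In the Notch list, 1 of 10 tested genes fell, Nrip2, a nuclear receptor-interacting protein (log2 fold change -1.03 ± 0.24, adjusted p = 0.0142). The shares over all genes were 8.93% lower and 7.59% higher. Among transcription regulators of smooth muscle, Tead1, the DNA-binding partner of YAP, was called higher (log2 fold change 0.45 ± 0.14, adjusted p = 0.0423) and Meis2, a homeobox factor, lower (log2 fold change -0.63 ± 0.18, adjusted p = 0.0325), of 15 tested (median -0.39). All 3 calls ended without the day 4 libraries (adjusted p = 0.0539 for Nrip2), and that of Tead1 also with the replicate block (adjusted p = 0.0575). The Tead1 call held in 3 of the 19 alternatives that tested it, with log2 fold changes of 0.13 to 0.50, and that of Meis2 in 7 of 19. Klf4, a factor that represses contractile genes, stood at 1427, 1508, 1707, 1049 and 1242 CPM in CTRL and 1207, 1659.8, 805, 329.8 and 494 CPM in EXP and was not called (log2 fold change -0.84 ± 0.29, adjusted p = 0.062). Myocd, the myocardin gene, looked up after its values were seen, was lower in all 5 pairs and not called (log2 fold change -0.62 ± 0.21, adjusted p = 0.0562).

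Matrix and its inhibitors changed in both directions. Of 24 tested genes of the synthetic phenotype 4 rose and 4 fell, against 7.59% higher and 8.93% lower among all genes. Without the day 4 libraries 1 rose and 1 fell. Timp1, an inhibitor of matrix metalloproteinases, rose from 54.0, 31.2, 99.5, 112 and 76.4 CPM in CTRL to 139, 116, 416, 256 and 260.2 CPM in EXP (log2 fold change 1.62 ± 0.20, adjusted p = 0.00149), with no overlap. Mgp, which blocks calcification of vessel walls, rose from 108, 728, 191, 792 and 369 to 900.1, 1567, 1618, 1433 and 1756 CPM (log2 fold change 1.66 ± 0.43, adjusted p = 0.0224), again with no overlap. Tnc, tenascin C of remodelling matrix, had 36.0, 51.5, 103, 56.2 and 24.7 and 101, 165, 376, 81.9 and 67.6 CPM (log2 fold change 1.53 ± 0.37, adjusted p = 0.0166), and S100a4, a calcium-binding protein, rose by 1.28. The calls of Mgp, Tnc and S100a4 ended without the day 4 libraries. Thbs1, thrombospondin 1, fell from 1489, 1757, 1259, 777 and 1047 to 575, 628, 891, 506 and 334 CPM (log2 fold change -1.17 ± 0.24, adjusted p = 0.00872), and Timp3 (-1.03), Eln, elastin (-1.86), and Lum, lumican (-2.84), fell too. The calls of Timp3, Eln and Lum ended without the day 4 libraries.

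**Figure D4:**
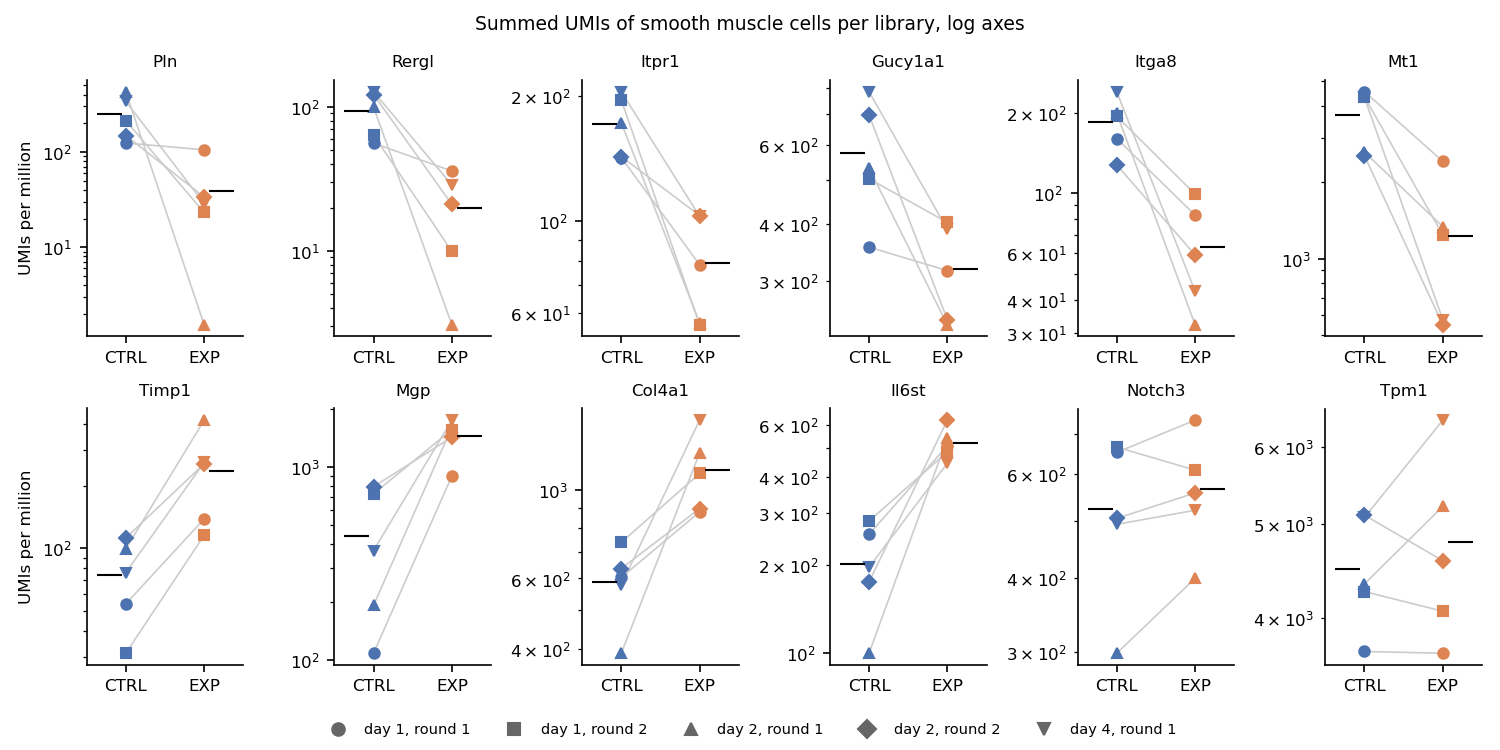
CPM of 12 genes in the summed smooth muscle cells of each library, on log axes, in 5 CTRL and 5 EXP libraries. Lines join the libraries of a day and round, and short bars are means. The first 6 genes are lower and the next 4 higher in every EXP library than in its pair, and the arms overlap for Notch3 and Tpm1.

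The basement membrane, the sheet of type IV collagen and laminin around each smooth muscle cell, had 5 of 28 tested genes higher and 4 lower. The shares over all genes were 7.59% higher and 8.93% lower. Col4a1 stood at 604, 738, 390.3, 635 and 579 CPM in CTRL and 879.9, 1098, 1235, 897 and 1492 CPM in EXP (log2 fold change 0.86 ± 0.19, adjusted p = 0.0113), with no overlap. Its partner chain Col4a2 rose by 0.85 and the laminin chain Lama4 by 0.74. These 3 calls ended without the day 4 libraries. Col18a1, the source of endostatin, rose from 272, 267, 272, 376 and 294 to 416, 456, 581, 771 and 672 CPM (log2 fold change 0.88 ± 0.15, adjusted p = 0.00399). In contrast, Col4a5, another type IV chain, fell from 78.0, 94.8, 111, 67.9 and 127 to 58.2, 39.7, 16.9, 12.6 and 10.2 CPM (log2 fold change -1.93 ± 0.36, adjusted p = 0.00588). Neither gene's arms overlapped.

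Integrins changed in opposite directions. Itga9, a receptor for tenascin C, stood at 28.0, 9.48, 23.0, 18.7 and 13.1 CPM in CTRL and 82.8, 39.7, 78.3, 63.0 and 47.1 CPM in EXP (log2 fold change 1.78 ± 0.30, adjusted p = 0.00375). Itga8, the integrin of contractile mesenchymal cells, stood at 159.9, 194, 199, 128 and 239 and 82.8, 99.2, 32.3, 58.8 and 43.0 CPM (log2 fold change -1.65 ± 0.25, adjusted p = 0.00238). The arms did not overlap for either, and both calls held in every alternative that tested them. Dmd, dystrophin, which links actin to the matrix receptor complex, fell by 1.20, and Cavin1, a coat protein of caveolae, by 0.55.

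Fibroblast transcripts were detected in the sums of smooth muscle cells. Of 12 tested fibroblast markers 6 fell (Clec3b, Lum, Cd34, Col1a1, Col1a2 and Lox) and 0 rose, with a median of -1.24. Among all genes 8.93% fell. The summed level of the 16 markers, all of them detected, was 29263, 11169, 9776, 5652 and 12941 CPM in the smooth muscle cells of CTRL and 12012, 2559, 3948, 4233 and 3143 CPM in those of EXP. In Ptprc cells, which should lack them, it was 6882, 3378, 2256, 1541 and 3719 CPM in CTRL and 533, 580.0, 457, 353 and 499 CPM in EXP. The Ptprc cells were chosen to have no UMI of Pdgfra, which is among the 16 markers, and the smooth muscle cells were not. A Pdgfra UMI, from the defining fibroblast receptor, was in 25 of 728 cells. With possible doublets left out, which removes the cells with a Pdgfra UMI, 0 of 10 tested fibroblast markers were called, and without the day 4 libraries 1 of 12. Of all 5175 genes tested without possible doublets 933 were called. Without possible doublets the log2 fold changes were -2.29 for Lum, -1.63 for Col1a1 and -1.37 for Col1a2, against -2.84, -2.44 and -2.10 with all cells. Among the genes that fell most were 4 of the summed markers. They were Clec3b (log2 fold change -3.08 ± 0.58, adjusted p = 0.00634), Lum (log2 fold change -2.84 ± 0.68, adjusted p = 0.0154), Col1a1 (log2 fold change -2.44 ± 0.59, adjusted p = 0.0165) and Cd34 (log2 fold change -2.32 ± 0.67, adjusted p = 0.0336). Pcolce2, a procollagen enhancer (log2 fold change -2.52 ± 0.66, adjusted p = 0.0222), and Selenop, a selenium carrier (log2 fold change -2.32 ± 0.57, adjusted p = 0.0178), were also among those that fell most. Their relation to the sums was not tested. Of these 6 calls, that of Clec3b held without the day 4 libraries and the others ended. The part of fibroblast RNA in their change was not tested. Pln was at 0 to 0.587 CPM in Ptprc cells.

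Markers of other cell types were summed in the same way. The 14 pericyte markers came to 2284 to 7604 CPM in CTRL and 4238 to 9939 CPM in EXP smooth muscle cells. In Rgs5 mural cells they came to 8718 to 15343 and 5257 to 8113 CPM. The summed level of the 12 endothelial markers was 704 to 2067 CPM in CTRL and 1052 to 2526 CPM in EXP, all 12 detected. Most of it was Fabp4, at 501 to 1813 CPM in CTRL and 743 to 2262 CPM in EXP, while Cdh5, the endothelial cadherin, was at 0 to 9.99 and 0 to 2.24 CPM. That of the 13 immune markers was 15.3 to 408 and 29.1 to 119 CPM, and that of the 12 keratinocyte markers 26.8 to 344 and 13.8 to 533 CPM. No gene of the last pair of lists was abundant enough for the test. The sum of the 13 skeletal muscle markers, which include Des, was 769 to 1358 CPM in CTRL and 1027 to 2442 CPM in EXP. Of these 13, 8 were detected, Ckm and Myl1 among them, and Pax7, Myod1, Myf5, Myh1 and Myh4 were at 0.

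Among interstitial collagens and fibrillar matrix 1 of 20 tested rose and 4 fell, against 7.59% and 8.93% of all genes. Loxl2, which cross-links collagen, rose from 96.0, 52.8, 53.6, 25.7 and 42.9 to 139, 66.1, 159.8, 116 and 172 CPM (log2 fold change 1.33 ± 0.34, adjusted p = 0.0195), and its relative Lox fell (log2 fold change -0.77 ± 0.23, adjusted p = 0.0417; 0.0557 with the replicate block). Col1a2 (-2.10) and Fbln2, a fibulin (-1.83), fell beside Col1a1. The calls of all 5 members ended without the day 4 libraries (adjusted p = 0.103 for Loxl2). That of Lox held in 6 of the 19 alternatives that tested it. Col3a1 and Dcn had log2 fold changes of -1.09 and -1.38 and were not called.

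Both called cytokine receptors pair with each other and moved apart. Il6st, the gp130 chain shared by receptors of the interleukin 6 family, rose from 254, 282, 99.5, 174 and 196 CPM in CTRL to 510.5, 486, 541, 624 and 445 CPM in EXP (log2 fold change 1.33 ± 0.22, adjusted p = 0.0033), with no overlap. Osmr, the oncostatin M receptor that pairs with gp130, fell from 209.9, 356, 153, 147 and 261 to 105, 145, 124, 139 and 152 CPM (log2 fold change -0.77 ± 0.21, adjusted p = 0.0291). The chemokines Cxcl10 and Ccl7 fell by 1.59 and 2.14, lower in 4 of 5 pairs each. The calls of Osmr, Cxcl10 and Ccl7 ended without the day 4 libraries. Il6 itself had 1895 ± 762 CPM in CTRL and 1163 ± 467 CPM in EXP and was not called (log2 fold change -0.66 ± 0.31, adjusted p = 0.164). In all, 1 of 19 tested cytokine genes rose and 3 fell, against 7.59% and 8.93% of all genes. Without the day 4 libraries 1 rose and 0 fell.

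Of 23 tested growth factors and receptors 1 rose and 6 fell (median -0.18), against 7.59% and 8.93% of all genes. Angpt2, the angiopoietin that loosens vessels, rose from 56.0, 65.0, 34.4, 73.7 and 49.5 to 76.1, 99.2, 118, 143 and 149.6 CPM (log2 fold change 0.96 ± 0.22, adjusted p = 0.0141). Bmp2, a bone morphogenetic protein, fell from 138, 218, 84.2, 110.0 and 156 to 109.7, 36.4, 29.2, 25.2 and 55.3 CPM (log2 fold change -1.55 ± 0.25, adjusted p = 0.00345), and Fgfr1, a fibroblast growth factor receptor, from 124, 100.3, 65.0, 74.9 and 83.7 to 62.7, 76.0, 26.1, 25.2 and 26.6 CPM (log2 fold change -1.21 ± 0.20, adjusted p = 0.00345). Tgfb2 (-1.61), Pdgfc (-1.29), Igfbp4 (-0.94) and Igfbp5 (-0.57) fell as well. Bmp2 and Fgfr1 were called in every alternative that tested them, and the calls of Angpt2, Tgfb2, Pdgfc, Igfbp4 and Igfbp5 ended without the day 4 libraries.

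Targets of YAP and TAZ, coactivators that respond to mechanical force, did not move together. Of 13 tested 1 rose and 3 fell, against 7.59% and 8.93% of all genes. Ccn2, connective tissue growth factor, had 9.99, 65.0, 712, 147 and 26.2 CPM in CTRL and 340.3, 519, 846, 546 and 195 CPM in EXP (log2 fold change 2.06 ± 0.56, adjusted p = 0.0266). It was higher in all 5 pairs, yet the CTRL library of day 2 round 1 exceeded 4 of the EXP libraries, and the call ended without the day 4 libraries. Ccn1, of the same family, was not called (log2 fold change 0.52 ± 0.26, adjusted p = 0.184). Dlc1, Crim1 and Tgfb2 fell, and the calls of Crim1 and Tgfb2 ended there too.

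Immediate early and dissociation stress genes fell: 13 of 33 tested, with 0 higher and a median of -0.60, against 8.93% lower among all genes. Without the day 4 libraries 5 of 33 fell, and with the replicate block the call of Junb, an AP-1 subunit, ended (adjusted p = 0.0576). Cebpb, a stress and cytokine response factor, stood at 2107, 2822, 1902, 2215 and 3841 CPM in CTRL and 878, 1580.5, 988, 659.6 and 1322 CPM in EXP (log2 fold change -1.29 ± 0.19, adjusted p = 0.00236), and Cebpd at 606, 650.4, 547, 529 and 867 and 320.2, 331, 266, 174 and 385 CPM (log2 fold change -1.18 ± 0.15, adjusted p = 0.00159). Neither gene's arms overlapped. Fosl2, an AP-1 subunit, fell by 0.99, and Fos, the best known of them, had 5317 ± 923 CPM in CTRL and 4153 ± 1743 CPM in EXP and was not called (log2 fold change -0.50 ± 0.23, adjusted p = 0.163). For Atf3, Nr4a1 and Dusp1 the EXP libraries of day 1 lay near or above CTRL values and those of day 2 and 4 below. None of these genes was called in the edgeR test of change with day given below. Nr4a1 was at 1115, 1116, 1079, 719.5 and 1137 CPM in CTRL and 1301, 899, 399, 447 and 443 CPM in EXP.

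Metal and redox genes fell in part, 3 of 11 tested with 1 higher. The shares over all genes were 8.93% lower and 7.59% higher. Mt1, a metallothionein that binds zinc, stood at 4554, 4342, 2629, 2544 and 4318 CPM in CTRL and 2418, 1239.9, 1336, 548 and 574 CPM in EXP (log2 fold change -1.71 ± 0.30, adjusted p = 0.00498), with no overlap. Txnrd1, thioredoxin reductase, fell by 1.19 and Mt2 by 1.23, and Slc39a14, a zinc importer, rose by 0.84. The Slc39a14 call held in 4 of the 19 alternatives that tested it. The Mt2 and Slc39a14 calls ended without the day 4 libraries, and that of Slc39a14 also with the replicate block (adjusted p = 0.0536). Of 9 tested glucocorticoid responsive genes 3 fell (Errfi1, Gadd45g and Cdkn1a), and Errfi1 alone kept its call there. In glycolysis, Pkm rose from 304, 247, 325, 363 and 292 to 446, 479, 594, 676 and 596 CPM (log2 fold change 0.80 ± 0.13, adjusted p = 0.0033), Pgk1 from 92.0, 78.6, 134, 136 and 94.6 to 170.2, 169, 237, 197 and 180.3 CPM (log2 fold change 0.80 ± 0.14, adjusted p = 0.00474), and Gapdh and Mif rose by 0.48 and 0.58. Hk2, Hif1a, Pfkp and Ndrg1 of the same list of 21 tested genes fell. Of these 8 calls, those of Pkm, Pgk1 and Pfkp held without the day 4 libraries. Of 29 tested respiratory chain genes 1 rose and 1 fell, and neither call held there.

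The genes with the largest changes among those called, at 20 CPM or more and moved the same way in all 5 pairs, named several others. Flt1, a receptor and decoy for vascular endothelial growth factor, had the largest rise, from 18, 12.2, 15.3, 31.6 and 4.37 CPM in CTRL to 26.9, 19.8, 138, 103 and 193 CPM in EXP (log2 fold change 2.47 ± 0.52, adjusted p = 0.00977). Its EXP libraries of day 1 overlapped the CTRL values, and those of day 2 and 4 lay above them. The edgeR test of change with day, given below, did not call it. Flt1 is also an endothelial marker, and the other 3 tested markers of that list (Fabp4, Esam and Ly6c1) were not called. Rdh10, which makes retinaldehyde, rose from 22.0, 14.9, 11.5, 21.1 and 17.5 to 29.1, 33.1, 152, 119.7 and 90.2 CPM (log2 fold change 2.07 ± 0.33, adjusted p = 0.0033). Cd248, endosialin of perivascular cells, had 52.0, 61.0, 3.83, 80.7 and 61.1 and 152, 136, 154, 176 and 369 CPM (log2 fold change 1.70 ± 0.34, adjusted p = 0.00787), with no overlap. Ahr, the aryl hydrocarbon receptor, Smyd2, a lysine methyltransferase, Scamp3, a membrane trafficking protein, Agpat2, an enzyme of phospholipid synthesis, and Wdr46 rose by 1.76, 1.59, 1.58, 1.55 and 1.74.

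On the falling side, Cck, the peptide cholecystokinin, stood at 116, 54.2, 15.3, 37.4 and 120.1 CPM in CTRL and 24.6, 16.5, 1.54, 4.20 and 20.5 CPM in EXP (log2 fold change -2.49 ± 0.36, adjusted p = 0.00236). Dgkb, a diacylglycerol kinase, stood at 74.0, 159, 187, 78.4 and 151 and 49.3, 26.5, 16.9, 12.6 and 22.5 CPM (log2 fold change -2.39 ± 0.36, adjusted p = 0.00236), with no overlap. Plagl1, an imprinted zinc finger factor, fell by 2.41, Qpct, glutaminyl cyclase, by 2.41 and Trmt61b, a tRNA methyltransferase, by 2.73. The calls of Qpct, Trmt61b and Wdr46 ended without the day 4 libraries.

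Whether the effect of expansion changed with day was tested as an interaction. Of 5510 genes 0 were called (0%) with edgeR, and 238 had an unadjusted p under 0.05. DESeq2 called 4. On simulated data of this design the test recovered 62% of genes whose effect changed by 1 log2 unit per day. It recovered 79% of those that changed by 2 log2 units per day.

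The effect of expansion was then compared between smooth muscle cells and Rgs5 mural cells in 9 libraries, since the EXP library of day 1 round 1 had 6 Rgs5 mural cells. Of 4521 genes, 11 (0.243%) had an effect that differed, 9 more positive and 2 more negative in smooth muscle cells. Timp3 stood, CTRL before EXP, at 1103 ± 191 and 565 ± 442 CPM in smooth muscle cells and 2178 ± 644 and 287 ± 289 CPM in Rgs5 mural cells (difference of effects 2.15 ± 0.32, adjusted p = 0.00467). It was lower in EXP in both kinds of cell, and more so in Rgs5 mural cells. Rgs16, a G protein regulator, had 256 ± 42.2 and 217 ± 111 CPM in smooth muscle cells and 1318 ± 571 and 255 ± 142 CPM in Rgs5 mural cells (2.05 ± 0.33, adjusted p = 0.00467). Iigp1, an interferon-inducible GTPase, had 104 ± 24.7 and 70.5 ± 39.8 CPM in smooth muscle cells and 1399 ± 809.5 and 232 ± 245 CPM in Rgs5 mural cells (2.47 ± 0.44, adjusted p = 0.00982). Neither Rgs16 nor Iigp1 was called in smooth muscle cells alone.

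Npy1r, the neuropeptide Y receptor of vessels, had 118 ± 22.2 and 96.3 ± 29.2 CPM in smooth muscle cells and 106 ± 35.5 and 16.1 ± 10.0 CPM in Rgs5 mural cells (2.42 ± 0.49, adjusted p = 0.0323). Vtn, vitronectin, a pericyte marker, had 51.7 ± 19.9 and 43.3 ± 12.3 CPM in smooth muscle cells and 289 ± 98.7 and 61.5 ± 40.9 CPM in Rgs5 mural cells (2.00 ± 0.42, adjusted p = 0.041). Sdc4, a heparan sulfate proteoglycan, went in opposite directions, with 389.9 ± 135 and 215 ± 62.1 CPM in smooth muscle cells and 119 ± 62.4 and 354 ± 132 CPM in Rgs5 mural cells (-2.36 ± 0.38, adjusted p = 0.00467). Cd14, a lipopolysaccharide coreceptor, did so too, with 514 ± 389 and 156 ± 88.5 CPM in smooth muscle cells and 63.8 ± 69.3 and 194 ± 75.9 CPM in Rgs5 mural cells (-3.47 ± 0.57, adjusted p = 0.00467). Without the day 4 libraries 4 genes were called. Of the 7 named here, 2 kept their call there.

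**Figure D5:**
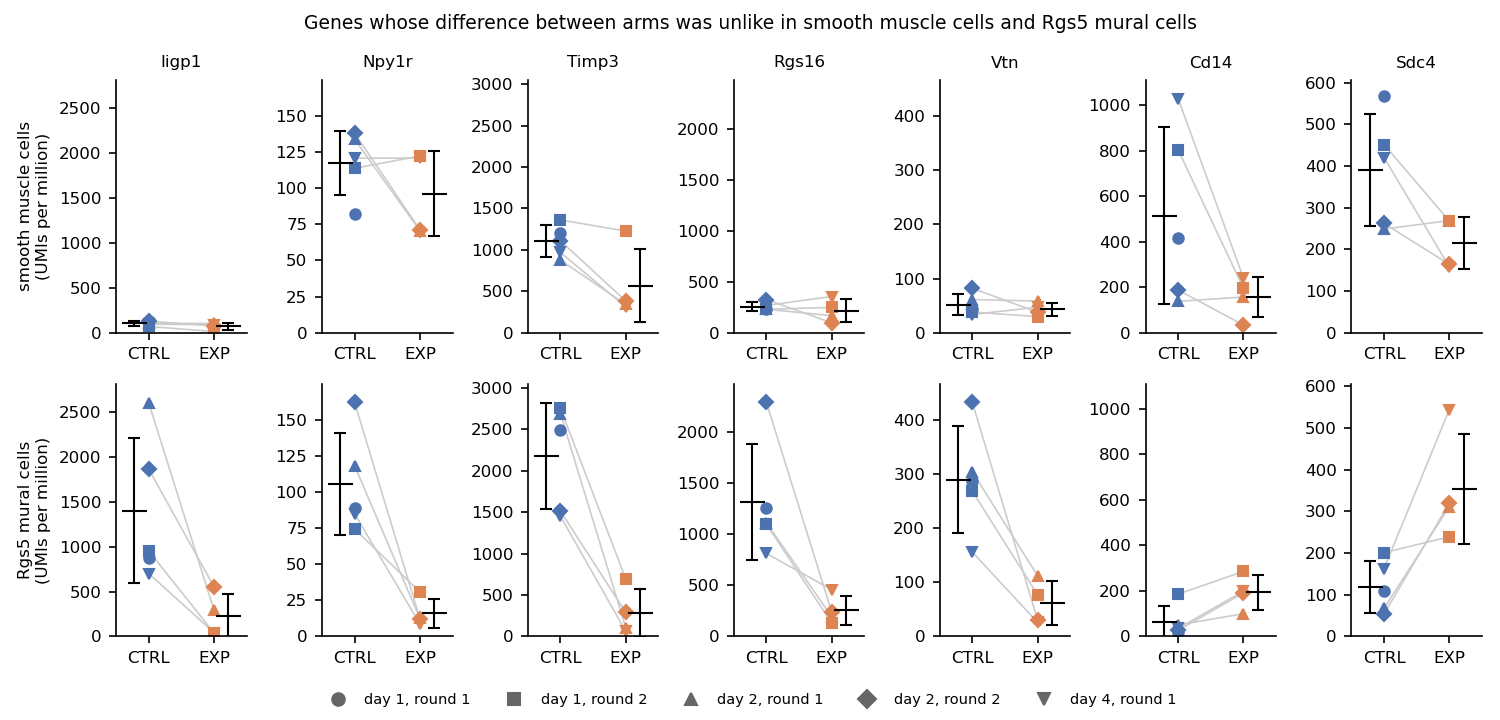
CPM of 7 genes in summed smooth muscle cells (top) and summed Rgs5 mural cells (bottom) of 9 libraries, on the same axis for each gene. Lines join libraries of the same day and round, bars are mean and SD. Sdc4 and Cd14 are lower in EXP on average in smooth muscle cells and higher in Rgs5 mural cells.

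Against fibroblasts, cells with a Pdgfra UMI and at least 10 Col1a1 and Col1a2 UMIs, the effect differed for 490 of 10698 genes (4.58%), 193 more positive and 297 more negative in smooth muscle cells. Plac8, a small cysteine-rich protein, stood at 3.98 ± 4.12 and 56.6 ± 42.3 CPM in smooth muscle cells and 27.9 ± 16.8 and 7.96 ± 7.30 CPM in fibroblasts (difference of effects 6.02 ± 0.40, adjusted p = 2.3e-06). It was higher in EXP in smooth muscle cells and lower in fibroblasts. Lmcd1, a LIM-domain cofactor, had 189 ± 64.0 and 82.6 ± 26.1 CPM in smooth muscle cells and 1.75 ± 1.30 and 24.7 ± 30.6 CPM in fibroblasts (-4.25 ± 0.41, adjusted p = 9.35e-05), which is the opposite pattern. Col27a1, a fibrillar collagen, had 35.0 ± 12.4 and 10.1 ± 7.18 CPM in smooth muscle cells and 8.85 ± 3.32 and 32.6 ± 10.7 CPM in fibroblasts (-3.59 ± 0.37, adjusted p = 0.000121). Il11, a cytokine of fibroblast activation, was higher in EXP in both, with 13.8 ± 9.58 and 43.6 ± 65.4 CPM in smooth muscle cells and 3.72 ± 1.24 and 85.0 ± 103 CPM in fibroblasts (-3.27 ± 0.58, adjusted p = 0.00518). For Il11 the difference was -1.99 without the day 4 libraries (adjusted p = 0.105) and -1.91 without possible doublets (adjusted p = 0.0643), and the call ended in both.

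Gpx3, Col6a5 and Chrdl1 had lower means in EXP than in CTRL fibroblasts. Gpx3, a secreted peroxidase, had 22.8 ± 12.3 and 20.4 ± 12.8 CPM in smooth muscle cells and 216 ± 136 and 12.8 ± 10.1 CPM in fibroblasts (3.76 ± 0.55, adjusted p = 0.00167). Col6a5 and Chrdl1 had differences of 4.78 and 3.84. Apod, apolipoprotein D, and F13a1, a coagulation factor subunit, had higher means in EXP than in CTRL fibroblasts and lower ones in EXP smooth muscle cells, with differences of -3.48 and -5.05. The Apod call ended without the day 4 libraries (-2.21, adjusted p = 0.134). For Hist1h1b, a replication-dependent histone, the difference of 8.63 rested on 1 library, that of EXP day 4, with 260.2 CPM in smooth muscle cells against 0 to 1.54 CPM in the other 9. It was 0.82 with possible doublets left out, and the call ended.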

How the data were processed

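Single-cell 3′ mRNA libraries (10x Genomics v3.1) were made from pooled mouse skin. The authors deposited UMI counts per gene and barcode, not normalized, from Cell Ranger 6.1.2 on mm10, per the submitters' processing notes. Antibody counts, present in 8 of the 10 matrices, were left out, and cells were not assigned to single mice. The title of the CTRL mRNA library of day 1 round 2 calls it hashing, while its description and files are those of an mRNA library, which were followed. Libraries held 2468 to 9115 barcodes and 1927 to 8312 kept cells. No doublet caller was run. A kept barcode was shared by 2 libraries 263 times over 45 pairs of libraries, 1 of them among the smooth muscle cells.

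UMIs of the cells were summed per library and tested in R 4.3.3 with edgeR 4.0.16 (quasi-likelihood, TMM, its low-count filter, at least 10 cells a library) and Benjamini-Hochberg adjustment, with genes of the rule left out of counts. DESeq2 1.42.0 was an alternative. On simulated data with the main design, 69% of genes changed by 1 and 98% of those changed by 2 on the log2 scale were recovered, with 1.77% false among calls. Shares were compared with exact permutation tests (scipy). Same-day, same-round libraries deviated together (correlations 0.126 to 0.324 over 5 pairs), so they were taken as pairs. The block on these pairs called 949 genes. Named genes were the 12 largest called changes in each direction (5 in the other tests) at 20 CPM or more, without Gm, Rik, mitochondrial and rule genes, plus called members of the lists and up to 4 abundant ones. The cells, lists and tests were chosen with earlier results of these data known. Listed genes matched a promoter window by symbol in 419 of 565 cases. A clustering of the smooth muscle cells was planned and not made. Alternatives were other cell limits, thinning, filters, tools and left-out libraries.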

Additional observations from a re-analysis of the deposited data

Results flagged for a closer look

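In 250 groups of 5 libraries tested, 25 held a library far from the other 4 by Dixon's criterion, which chance gives in about 1 group in 20. Of these, 9 were the EXP library and 6 the CTRL library of day 1 round 1, where the summed fibroblast markers were also the highest of their arm (29263 CPM in CTRL, 12012 CPM in EXP). The CTRL library of day 1 round 1 was highest for Col1a1 (9943 against 1038 to 3099 CPM), Qpct (99.9 against 32.8 to 50.1 CPM), Selenop (349.8 against 21.1 to 114 CPM), Col1a2 (9329 against 1364 to 3170.5 CPM), Eln (479.8 against 44.5 to 144 CPM) and Fbln2 (119.9 against 28.1 to 53.9 CPM). The EXP library of day 1 round 1 was highest for Lum (304 against 2.10 to 79.4 CPM), Pcolce2 (64.9 against 0 to 16.5 CPM), Col1a1 (2785 against 197 to 548 CPM), Qpct (47.0 against 0 to 4.61 CPM), Cd34 (51.5 against 0 to 7.68 CPM), Selenop (91.8 against 2.10 to 18.4 CPM), Col1a2 (3193 against 336 to 668 CPM), Ntrk3 (62.7 against 9.92 to 18.4 CPM) and Mt2 (1516 against 139 to 463 CPM). The EXP library of day 1 round 2 was highest for Plagl1 (26.5 against 2.10 to 8.96 CPM) and Fosb (4044 against 1519 to 2234 CPM). The CTRL library of day 2 round 1 was highest for Ccn2 (712 against 9.99 to 147 CPM). The CTRL library of day 2 round 1 was lowest for Aoc3 (179.8 against 295 to 331 CPM). The EXP library of day 2 round 1 was highest for Trmt61b (23.0 against 0 to 6.15 CPM). The CTRL library of day 2 round 2 was highest for Col18a1 (376 against 267 to 294 CPM). The CTRL library of day 2 round 2 was lowest for Cd34 (22.2 against 61.2 to 71.8 CPM), Dmd (101 against 200.2 to 236 CPM) and Nr4a1 (719.5 against 1079 to 1137 CPM). The EXP library of day 4 round 1 was highest for Cd248 (369 against 136 to 176 CPM).

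The difference between arms was unlike, by the test of the difference itself, for 11 genes between smooth muscle cells and Rgs5 mural cells: those named in the report were Iigp1 (2.47), Npy1r (2.42), Timp3 (2.15), Rgs16 (2.05), Vtn (2.00), Cd14 (-3.47) and Sdc4 (-2.36), as log2 differences. Between smooth muscle cells and fibroblasts this held for 490 genes, among them Hist1h1b (8.63), Plac8 (6.02), Col6a5 (4.78), Chrdl1 (3.84), Gpx3 (3.76), F13a1 (-5.05), Lmcd1 (-4.25), Col27a1 (-3.59), Apod (-3.48) and Il11 (-3.27).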

How the results depend on the processing

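No share and no named gene that was called changed direction under the alternatives run. The median of the contractile list turned from -0.21 to 0.08 with thinned cells, and the cytokine genes that fell went from 3 to 0 without the day 4 libraries. Where a count moved, the cause was not tested, except as stated. The share of smooth muscle cells in kept cells differed by -0.512 points (p = 0.111, exact permutation). It passed the threshold with cells thinned to 3000 UMIs (-0.852 points, exact permutation p = 0.0238) and without possible doublets (-0.913 points, exact permutation p = 0.0476). It did not with cells without a Ptprc UMI as denominator (-0.300 points, exact permutation p = 0.571). Nor did it with a 5% mitochondrial limit (-0.277 points, exact permutation p = 0.421) or at least 5 Myh11 UMIs (-0.386 points, exact permutation p = 0.222). With the replicate block (exact swaps of the 5 pairs) it had p = 0.25. The share of smooth muscle cells in mural cells, with a difference of -7.11 points (exact permutation p = 0.262), passed the threshold with thinned cells only (-27.5 points). There, cells could also pass from smooth muscle cells to Rgs5 mural cells. Leaving out 1 library each moved the 2 differences between -0.675 and -0.308 points and between -10.7 and -4.59 points. Of the genes changed with expansion, 910 in all, 266 were called with cells thinned to 2000 UMIs, where 1301 genes could be tested, 304 without both day 4 libraries, and 305 to 875 without 1 library each. DESeq2 called 730, and the replicate block 949. With day, 124 genes were called with no filter on low counts, 4 by DESeq2, 2 with the replicate block, and 0 to 3 without 1 library each. Against Rgs5 mural cells, 49 genes were called with no filter, 4 without the day 4 libraries, and 4 to 19 without 1 library each. Against fibroblasts 802 were called with no filter, 284 with thinned cells, 175 without the day 4 libraries, and 177 to 474 without 1 library each. Of the 115 genes of the main comparison that were named or listed and called, 38 kept their call in every alternative that tested them, 46 did so without the day 4 libraries, and 111 with the replicate block, which changed no call beyond the 4 given in the report. The limit of 20 cells per library could not be fitted for Rgs5 mural cells, and the alternative without day 4, like that restricted to Notch3 or Rgs5 cells, was chosen after seeing the data. The self-test recovered 10% of genes that differed by 1 and 59% of those that differed by 2 on the log2 scale in the comparison with Rgs5 mural cells, where sums held as few as 37021 UMIs.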

Other observations

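Rbm3, an RNA-binding protein known as a cold-shock protein, was looked at after its values were seen, since its unadjusted p was the smallest of all genes tested in smooth muscle cells. It stood at 424, 412, 402, 535 and 456 CPM in CTRL and 1046, 1223, 1223, 1273 and 1197 CPM in EXP (log2 fold change 1.36 ± 0.13, adjusted p = 0.000537). All EXP libraries lay above all CTRL libraries. Outside smooth muscle cells Rbm3 was also higher in each EXP library than in every CTRL library: 189 to 474 against 1179.6 to 1982 CPM in Rgs5 mural cells, 287 to 433 against 839.7 to 1179 CPM in fibroblasts, and 566 to 673 against 1191 to 1511 CPM in Ptprc cells. Cirbp, the related cold-inducible RNA-binding protein, had 56.0, 29.8, 65.0, 24.6 and 37.1 CPM in CTRL and 128, 119, 76.8, 60.9 and 121 CPM in EXP smooth muscle cells (log2 fold change 1.30 ± 0.27, adjusted p = 0.0091), and its call ended without the day 4 libraries. In fibroblasts it stood at 20.7 to 33.9 against 54.5 to 100.2 CPM. In Rgs5 mural cells the Cirbp ranges overlapped.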
